A study of Mus musculus with 9 samples.

Results

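Cebpe, Cebpa, Cebpb, Cebpd, Gfi1 and Spi1 encode transcription factors of granulocyte commitment and maturation, and their transcripts were followed in the lungs of tumour-bearing mice. The 6 genes were taken by symbol from the 45706 rows of the deposited table, and all 6 passed the filter on low values, among 13248 tested genes. Female BALB/c mice, 4 to 6 weeks old, carried 4T1 mammary carcinoma cells in the right flank, so every group bore tumours. Of the 9 lungs, 3 came from mice given nanocapsules of an antibody against PD1 at 150 µg per mouse, 3 from mice given the free antibody and 3 from mice given phosphate-buffered saline (PBS). Treatments fell on days 7 and 14 and lungs were collected on day 21. The labels do not make clear whether the dose also holds for the free antibody, and the make-up of the capsules and the antibody clone are not given there. PD1 is a checkpoint receptor that restrains T cells. Animals are not named in the labels, so the spread behind each p-value is that between these 9 samples, and no batch is labelled.

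Granulocytes arise from myeloid progenitors under a small set of DNA-binding proteins. PU.1, the product of Spi1, is an ETS-family factor needed by all myeloid lineages, and C/EBPα, from Cebpa, opens the granulocyte path. GFI1 is a zinc-finger repressor that favours the granulocyte over the monocyte fate, and C/EBPε, from Cebpe, drives the late steps in which secondary granules are filled. C/EBPβ and C/EBPδ serve in emergency granulopoiesis, inflammation and mature cells. These factors are not confined to neutrophils: Spi1, Cebpa and Cebpb are also used by macrophages, Cebpa by alveolar type 2 cells, and Gfi1 by developing lymphocytes. 4T1 tumours are known to drive an expansion of granulocytes in the host.

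Between 12194 and 13407 genes reached 1 TPM (a transcript abundance corrected for length and brought to a common total), and rank correlations between libraries lay from 0.950 to 0.982. TPM keep no sequencing depth, so the depth behind each value is unknown. Transcripts of the mitochondrial genome took 3.295%, 2.37% and 2.22% of the TPM under nanocapsules, 5.01%, 5.76% and 5.48% under free anti-PD1 and 4.38%, 2.37% and 3.899% under PBS. The anti-PD1 lungs were entirely above both other groups in this share. The labelled tissue was present by its markers, with 8 genes of alveolar type 2 cells summing to 583 to 4251 TPM, and the summed TPM of 4 hepatocyte markers stayed at or below 0.964. The lungs were rich in neutrophil transcripts: 8 mature neutrophil genes, S100a8 and S100a9 among them, summed to 164901 to 188175 TPM in nanocapsule lungs, 109268 to 126086 TPM in anti-PD1 lungs and 129614 to 178644 TPM in PBS lungs. Most of each sum came from S100a8 and S100a9, which took 10.3% to 17.5% of all TPM of a lung. PBS lung 2 stood apart from the other PBS lungs, with the highest sum of the group. In whole lung, fewer cells of a type and less RNA per cell cannot be told apart.

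The 6 factors spanned a wide range of abundance and kept 1 order in every lung. By mean TPM over the 9 lungs, Cebpb was highest at 2613, followed by Spi1 at 796, Cebpd at 358, Cebpa at 125, Cebpe at 30.0 and Gfi1 at 2.13. Cebpb ranked 46 among the tested genes and Gfi1 ranked 11149. The ranges over lungs did not overlap between neighbours in that order: 2289 to 2960 TPM for Cebpb, 639 to 901 for Spi1, 249 to 471 for Cebpd, 87.0 to 163 for Cebpa, 18.1 to 39.0 for Cebpe and 0.618 to 5.50 for Gfi1.

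**Figure D1:**
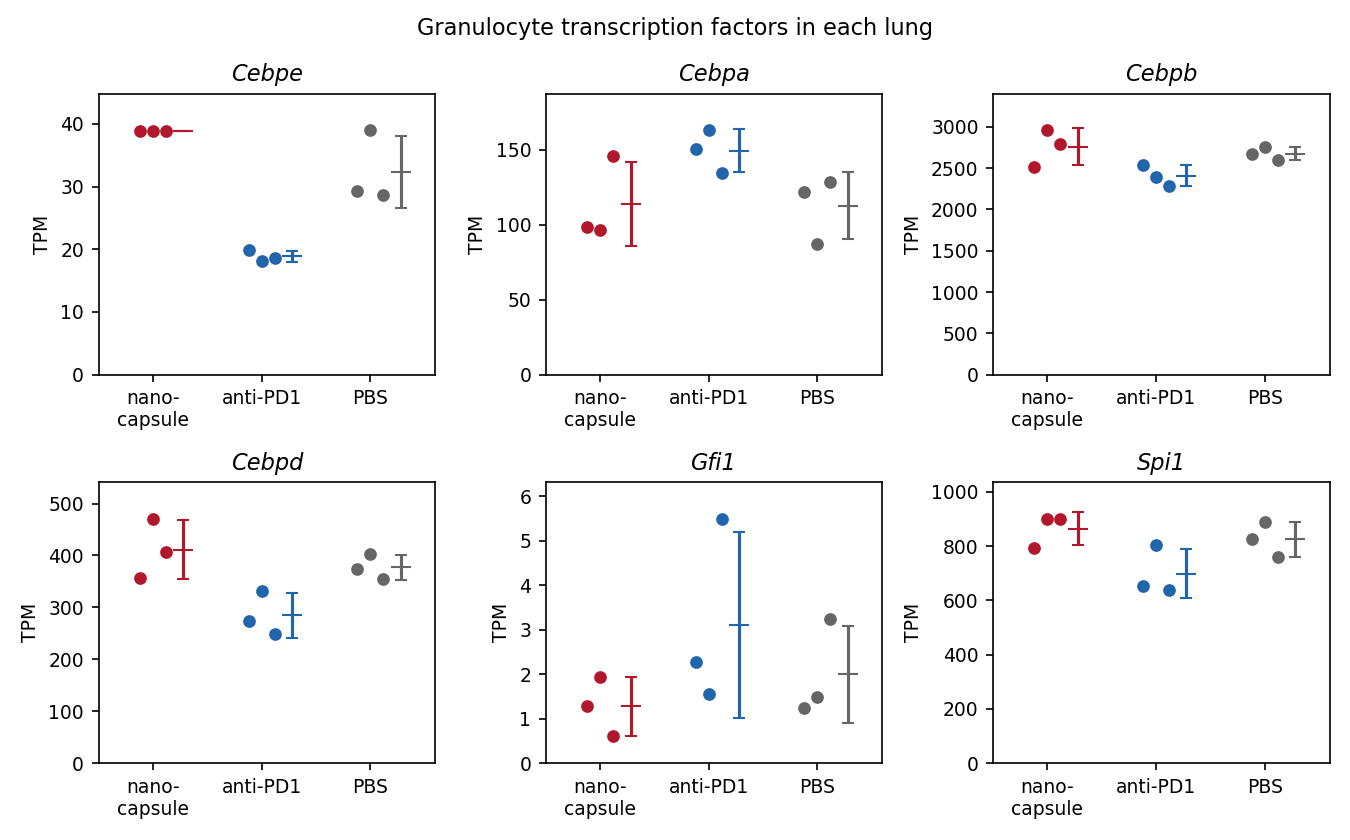
TPM of each factor in each lung (points), with the group mean and SD (bar to the right of the points) for 3 nanocapsule, 3 anti-PD1 and 3 PBS lungs; every vertical axis starts at 0. Cebpe sits near 38.9 TPM in all nanocapsule lungs and below 20 TPM in all anti-PD1 lungs, and Gfi1 stays under 6 TPM throughout.

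The 4 C/EBP genes are paralogs whose coding sequences are most alike in the basic region, the DNA-contacting part of the protein. The window below is the stretch of 60 coding bases of Cebpe that best matches the other 3 genes, on GRCm38 with the GENCODE M21 transcripts, and is given for Cebpe, Cebpa and Cebpb. It is shown because near-identical stretches are where reads could be assigned to the wrong paralog. Capitals mark bases that differ from Cebpe, and each line reads 5′ to 3′ on the coding strand.
Cebpe, chr14:54710710-54710769, minus strand: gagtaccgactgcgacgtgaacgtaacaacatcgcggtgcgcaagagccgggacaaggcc
Cebpa, chr7:35120271-35120330, plus strand: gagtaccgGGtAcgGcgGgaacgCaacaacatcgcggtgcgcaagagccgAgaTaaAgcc
Cebpb, chr2:167689691-167689750, plus strand: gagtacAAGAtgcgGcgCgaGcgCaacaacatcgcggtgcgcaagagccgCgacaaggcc
Identity to Cebpe in this window was 85.0% for Cebpa and 85.0% for Cebpb. The longest run of coding bases that Cebpe shares exactly was 26 bases with Cebpa and 26 with Cebpb.

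Windows of 31 bases were then compared across all annotated transcripts, since a read needs such a stretch to itself to be placed with certainty. None of the 1211 windows of Cebpe and none of the 2690 windows of Spi1 occurred in a transcript of another gene. Cebpa shared 0.835% of its windows with Gm45091, an antisense transcript, and Gfi1 shared 1.65% with the overlapping A430072P03Rik, which is listed at 0.441 TPM or less in every lung. For Cebpb 19.6% of windows were shared with 7 other genes, Tmem189 on the opposite strand among them, and for Cebpd 14.2% were shared with Spidr, likewise on the opposite strand. Whether the libraries kept strand is not given in the sources used here, so the levels of Cebpb and Cebpd are less certain, although Tmem189 (77.0 to 98.4 TPM) and Spidr (10.3 to 14.3 TPM) were far below them.

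Cebpe is a protein-coding gene with 2 exons on the minus strand, chr14:54710360-54712174 of GRCm38. It had 38.9, 38.9 and 38.8 TPM under nanocapsules, 19.9, 18.1 and 18.6 TPM under free anti-PD1 and 29.3, 39.0 and 28.7 TPM under PBS. The highest anti-PD1 lung was below the lowest lung of either other group. The nanocapsule lungs were almost identical to each other and fell inside the PBS range, near PBS lung 2. The mitochondrial share was highest in the anti-PD1 lungs, where Cebpe was lowest, and its part in the Cebpe and granule gene values was not tested.

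Between nanocapsule and anti-PD1 lungs, Cebpe was 2.06-fold higher by mean TPM, 38.9 ± 0.0474 against 18.9 ± 0.916 TPM (SD, n = 3). It had a difference of 1.01 in log2(TPM + 1), with a 95% interval of 0.74 to 1.28 and a limma adjusted p = 0.0393, and it ranked 2 by p among all tested genes. Of the 6 factors, 1 was called at an adjusted p under 0.05, in a comparison that called 0.106% of all tested genes. At an unadjusted p under 0.05 it was 4 of 6 factors, beside 27.7% of tested genes. The median tested gene differed by -0.17 here, and with median-of-ratios scaling, which brings that median to -0.0019, Cebpe differed by 1.20 (limma adjusted p = 0.0336). The difference kept its size, from 0.98 to 1.04, without single lungs, but the call was lost without any 1 of the 6 lungs compared, with limma adjusted p from 0.0667 (without anti-PD1 lung 2) to 0.165 (without nanocapsule lung 2).

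Against PBS, anti-PD1 lungs had less Cebpe by value, 18.9 ± 0.916 against 32.3 ± 5.78 TPM (SD, n = 3), a log2 difference of -0.74 (95% interval -1.004 to -0.47, limma adjusted p = 0.194). This comparison called 0.00755% of the tested genes, a single gene that is none of the 6 factors, while 3 factors and 16.5% of genes had an unadjusted p under 0.05 with limma. Nanocapsule and PBS lungs overlapped, with a log2 difference of 0.27 (95% interval 0.0030 to 0.54, limma adjusted p = 0.486) that was 0.41 without PBS lung 2 (limma adjusted p = 0.174), in a comparison that also called 0.00755% of genes and none of the factors. There 1 factor, Cebpe itself, and 10.1% of genes had an unadjusted p under 0.05 with limma, and no factor had groups without overlap, which 2.4% of genes had in the higher and 11.9% in the lower direction. The 3 comparisons share their groups of lungs pairwise and are not independent of each other.

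**Figure D2:**
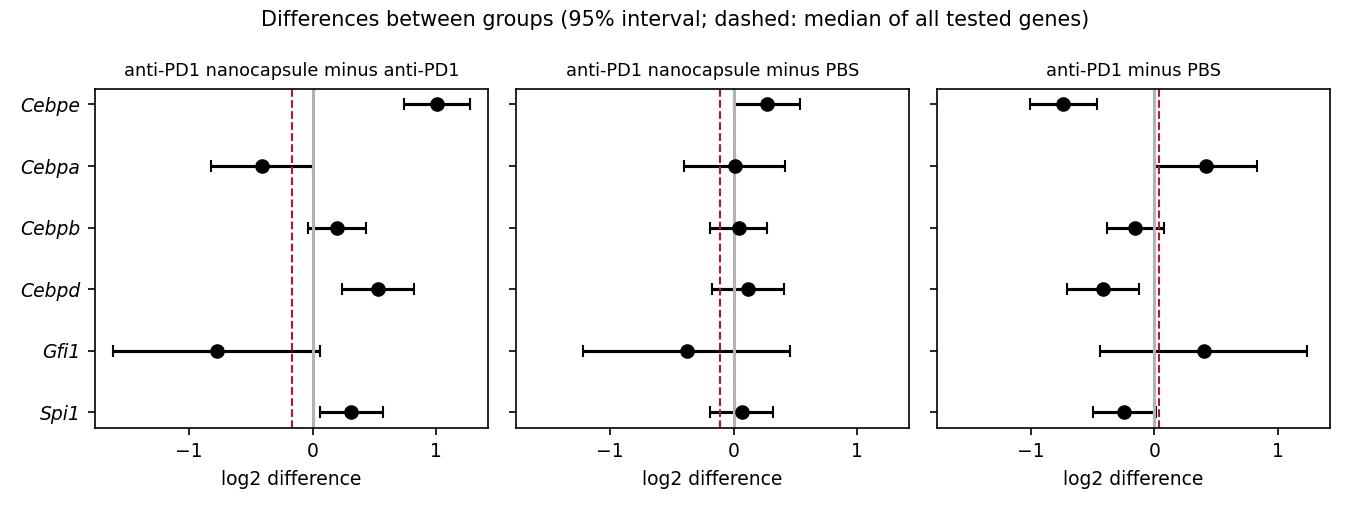
Log2 difference of each factor in the 3 comparisons (points) with the 95% interval of the limma fit (bars); the dashed line is the median of all 13248 tested genes. The interval of Cebpe lies furthest above 0 in nanocapsule minus anti-PD1 lungs, and Gfi1 has the widest intervals.

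The profiles nearest to Cebpe over the 9 lungs belonged to genes of neutrophil granules and maturation. Likeness was measured as the root mean square difference between log2(TPM + 1) profiles after each was centred on its mean, and is a description without a test. The nearest were Cd177, a neutrophil surface glycoprotein, at 0.07, Lcn2, the granule protein lipocalin 2, at 0.08, Padi4, a peptidylarginine deiminase of neutrophils, at 0.09, and Ltf, the secondary granule protein lactoferrin, at 0.10, where the SD of Cebpe itself was 0.47. The distance from Cebpe to the other factors was 0.26 for Cebpd, 0.32 for Spi1, 0.36 for Cebpb, 0.69 for Cebpa and 0.88 for Gfi1.

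**Figure D3:**
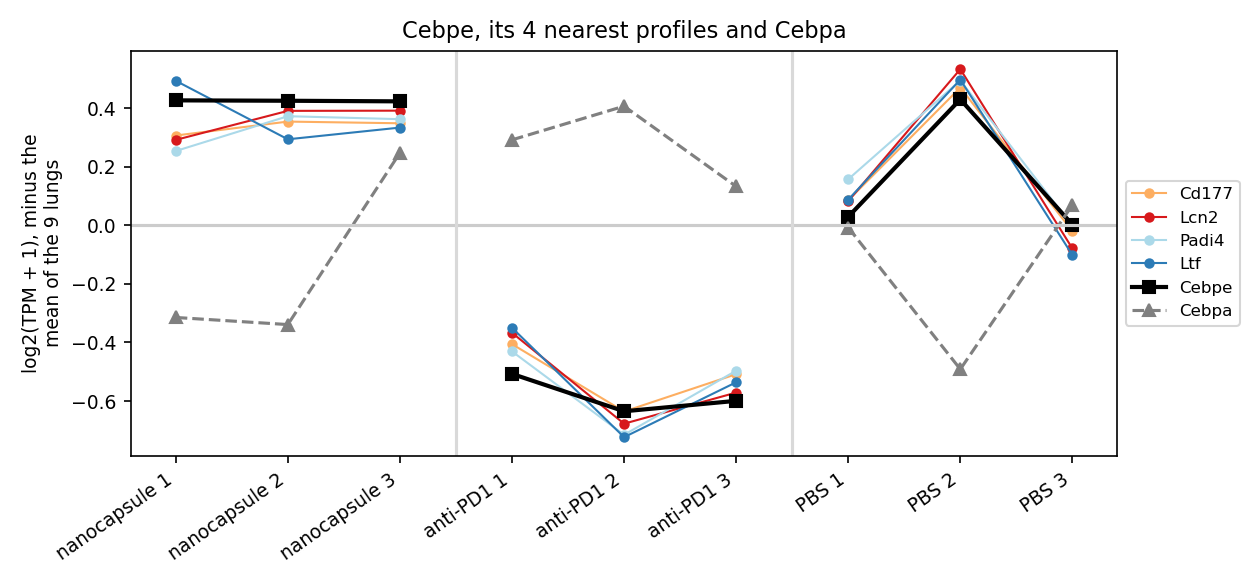
log2(TPM + 1) of Cebpe, of its 4 nearest genes and of Cebpa in each lung, minus the mean of the 9 lungs; lines join the lungs of a group only to guide the eye and carry no order. Cebpe and its 4 nearest genes are low in all anti-PD1 lungs and high in the nanocapsule lungs and PBS lung 2, and Cebpa has its lowest value in PBS lung 2.

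Cebpd, in 1 or 2 exons on the plus strand of chr16:15887286-15891031, followed the same order of groups with a smaller spread between them. It had 357, 471 and 406 TPM under nanocapsules, 274, 332 and 249 TPM under free anti-PD1 and 373, 403 and 355 TPM under PBS. Every nanocapsule lung and every PBS lung lay above every anti-PD1 lung. Nanocapsule lungs averaged 411 ± 57.1 TPM against 285 ± 42.7 TPM in anti-PD1 lungs (SD, n = 3), which is 0.53 on the log2(TPM + 1) scale (95% interval 0.24 to 0.82, limma adjusted p = 0.0736). Of the 6 factors, 2 (Cebpe and Cebpd) had nanocapsule lungs entirely above anti-PD1 lungs, as did 8.73% of tested genes. None lay entirely below, as 24.6% of tested genes did. For anti-PD1 against PBS lungs, Cebpd differed by -0.41 (95% interval -0.70 to -0.12, limma adjusted p = 0.222). Its nearest profiles were those of Armc7 (0.07), Bnip3 (0.08), Lrrc25 (0.08) and Snx20 (0.08), where its own SD was 0.29.

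Spi1, 33367 bases long on chr2:91082390-91115756, plus strand, had the same direction by value. It had 793, 901 and 899 TPM under nanocapsules, 653, 804 and 639 TPM under free anti-PD1 and 827, 890 and 760 TPM under PBS. Anti-PD1 lung 2 fell inside the range of both other groups, and the other anti-PD1 lungs lay below them. The log2 difference was 0.31 between nanocapsule and anti-PD1 lungs (95% interval 0.06 to 0.57, limma adjusted p = 0.129) and -0.24 between anti-PD1 and PBS lungs (95% interval -0.50 to 0.01, limma adjusted p = 0.315). With median-of-ratios scaling the first of these was 0.51 (limma adjusted p = 0.104). Tyrobp, a signalling adaptor of myeloid receptors, Rnf11, Slpi, a secreted protease inhibitor, and Rhog had the nearest profiles, at 0.04 to 0.05.

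Cebpb, a single exon on chr2:167688915-167690418, plus strand, varied least, with a highest value 1.29 times its lowest. It had 2518, 2960 and 2798 TPM under nanocapsules, 2539, 2389 and 2289 TPM under free anti-PD1 and 2674, 2750 and 2598 TPM under PBS. The anti-PD1 lungs were entirely below the PBS lungs, by a log2 difference of -0.15 (95% interval -0.39 to 0.08, limma adjusted p = 0.482). The nanocapsule lungs overlapped both other groups, with a log2 difference of 0.20 from anti-PD1 lungs (95% interval -0.04 to 0.43, limma adjusted p = 0.241). With median-of-ratios scaling that difference was 0.39 (limma adjusted p = 0.133). Its nearest profiles, Maea, Map1lc3b, Slc9a3r1 and Clic1, lay at 0.04 to 0.05. In anti-PD1 against PBS lungs, 3 factors (Cebpe, Cebpb and Cebpd) lay entirely lower and 1 (Cebpa) entirely higher, as did 13.4% and 12.1% of tested genes.

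Cebpa, on chr7:35119293-35121928, plus strand, stood apart from the other C/EBP genes, with its highest levels in the anti-PD1 lungs. It had 98.5, 96.9 and 146 TPM under nanocapsules, 151, 163 and 135 TPM under free anti-PD1 and 122, 87.0 and 129 TPM under PBS. Anti-PD1 lungs were entirely above PBS lungs and overlapped the nanocapsule lungs through nanocapsule lung 3. The log2 difference was -0.41 between nanocapsule and anti-PD1 lungs (95% interval -0.82 to -0.0015, limma adjusted p = 0.18) and 0.42 between anti-PD1 and PBS lungs (95% interval 0.01 to 0.83, limma adjusted p = 0.293). Without nanocapsule lung 3 the first of these was -0.60, and with median-of-ratios scaling it was -0.21. The second was 0.25 without PBS lung 2 (limma adjusted p = 0.748).

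Alveolar macrophage markers, like Cebpa, were highest by group mean in the anti-PD1 lungs, but single lungs did not all follow 1 order. The 8 alveolar macrophage markers were all measured and summed to 1052, 935 and 1582 TPM under nanocapsules, 2018, 2192 and 1871 TPM under free anti-PD1 and 1600, 994 and 1383 TPM under PBS, so both Cebpa and these markers were highest in nanocapsule lung 3 among nanocapsule lungs and lowest in PBS lung 2 among PBS lungs. PBS lung 1 was above PBS lung 3 in the sum of these markers but below it in Cebpa, with 122 against 129 TPM. None of these markers was at 0 in all lungs. The 8 alveolar type 2 markers summed to 918 to 4251 TPM in nanocapsule lungs, 1713 to 4092 TPM in anti-PD1 lungs and 583 to 1407 TPM in PBS lungs, and their highest library, nanocapsule lung 1, had a low Cebpa. The part of either cell type in the Cebpa values was not tested. The nearest profiles to Cebpa were Ggta1, an alpha-galactosyltransferase, at 0.07, Tstd3 and Ak8 at 0.08 and Cndp2 at 0.08, where its own SD was 0.31.

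The start regions of Cebpa and Cebpb are shown because their differences between anti-PD1 and PBS lungs had opposite signs by value. Neither difference was called (limma adjusted p = 0.293 for Cebpa and 0.482 for Cebpb), and a part of the start regions in them was not tested. RefSeq start sequences (GRCm38.p6, 250 bases before to 50 bases after the annotated start) were matched for 3 of the 6 factors, Cebpa, Cebpb and Gfi1. Capitals mark matches on either strand to TATAAA, a core of the TATA box, TTGCG, a core of C/EBP sites, TGACG, a core of cyclic AMP response elements, and AGGAAG, a core of PU.1 sites.
Cebpa, chr7:35119043-35119342, plus strand: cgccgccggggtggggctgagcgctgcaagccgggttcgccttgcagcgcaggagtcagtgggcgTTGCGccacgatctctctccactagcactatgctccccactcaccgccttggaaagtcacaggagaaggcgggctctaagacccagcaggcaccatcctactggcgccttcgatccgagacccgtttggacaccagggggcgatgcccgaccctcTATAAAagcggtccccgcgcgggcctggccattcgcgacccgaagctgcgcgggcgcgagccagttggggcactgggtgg
Cebpb, chr2:167688665-167688964, plus strand: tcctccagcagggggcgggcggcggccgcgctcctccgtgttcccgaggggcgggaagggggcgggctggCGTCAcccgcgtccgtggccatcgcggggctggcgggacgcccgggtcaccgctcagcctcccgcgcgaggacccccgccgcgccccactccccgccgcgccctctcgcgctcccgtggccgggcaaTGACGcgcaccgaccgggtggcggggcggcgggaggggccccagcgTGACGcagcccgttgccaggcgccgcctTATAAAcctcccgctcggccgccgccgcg
Cebpa held 1 TATAAA and 1 TTGCG, and Cebpb held 1 TATAAA and 3 TGACG, with no overlap between motifs. Of 32851 RefSeq start regions of this length, 13.6% held TATAAA, 17.4% TTGCG, 20.8% TGACG and 35.4% AGGAAG. These matches describe letters in a window and say nothing of binding.

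Gfi1, on chr5:107716657-107726036, minus strand, was near the lower limit of what was tested and varied most. It had 1.28, 1.93 and 0.618 TPM under nanocapsules, 2.28, 1.56 and 5.50 TPM under free anti-PD1 and 1.24, 1.49 and 3.25 TPM under PBS. Anti-PD1 lung 3 and PBS lung 3 were highest in their groups, and the 3 groups overlapped. The log2 difference was -0.78 between nanocapsule and anti-PD1 lungs (95% interval -1.62 to 0.06, limma adjusted p = 0.206) and -0.39 without anti-PD1 lung 3, or -0.35 with a pseudocount of 5. Between anti-PD1 and PBS lungs it was 0.40 (95% interval -0.44 to 1.24, limma adjusted p = 0.622), with 0.01 without anti-PD1 lung 3 and 0.68 without anti-PD1 lung 2 or PBS lung 3, and 0.22 without PBS lung 1.

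T cell markers and Gfi1 were highest in the same lungs, but the remaining lungs did not follow 1 order. Nanocapsule lung 2 had the highest Gfi1 of its group, 1.93 TPM, with fewer T cell marker transcripts than nanocapsule lung 1. The 6 markers, all measured, summed to 180, 172 and 160 TPM under nanocapsules, 370, 186 and 522 TPM under free anti-PD1 and 206, 193 and 406 TPM under PBS, so anti-PD1 lung 3, PBS lung 3 and anti-PD1 lung 1 led both in Gfi1 and in these markers, in that order. The part of T cells in the Gfi1 values was not tested. Camk4, a kinase of T cells and neurons, and Cdh24, a cadherin, had the nearest profiles, at 0.15 and 0.16, followed by Tnk2 and Mxra7 at 0.20 and 0.21, where the SD of Gfi1 was 0.58. No granule gene was among them.

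The balance among the C/EBP transcripts of a lung does not depend on how the library was scaled. Cebpe made up 1.18% ± 0.104 of the summed TPM of the 4 C/EBP genes in nanocapsule lungs, 0.660% ± 0.0338 in anti-PD1 lungs and 1.01% ± 0.156 in PBS lungs (SD, n = 3). Cebpa made up 3.43% ± 0.808, 5.23% ± 0.344 and 3.54% ± 0.783 in the same order of groups, and Cebpb took 82.3% to 85.1% in every lung. The ratio of Cebpe to Cebpa was 0.395, 0.401 and 0.266 under nanocapsules, 0.132, 0.111 and 0.138 under free anti-PD1 and 0.240, 0.448 and 0.223 under PBS, without overlap between the anti-PD1 lungs and either other group. This was not particular to Cebpe. The ratio of Cebpd to Cebpa was 1.82 to 2.03 in anti-PD1 lungs, 2.78 to 4.86 in nanocapsule lungs and 2.75 to 4.62 in PBS lungs. Cebpa was the C/EBP gene highest by mean in anti-PD1 lungs, and the share of other gene pairs that separate was not computed.

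Each factor was also set against transcripts of mature neutrophils in the same lung, as its log2(TPM + 1) minus the mean of that over the 8 mature neutrophil genes. That mean was higher by 0.52 in nanocapsule than in anti-PD1 lungs and lower by value in anti-PD1 than in PBS lungs, with a difference of -0.41. On this relative scale Cebpe stood at -5.75, -5.94 and -5.96 under nanocapsules, -6.35, -6.48 and -6.28 under free anti-PD1 and -6.09, -6.01 and -6.04 under PBS. All nanocapsule lungs were above all PBS lungs, and these above all anti-PD1 lungs. The difference was 0.49 between nanocapsule and anti-PD1 lungs, 0.16 between nanocapsule and PBS lungs and -0.32 between anti-PD1 and PBS lungs, each with a two-sided exact permutation p = 0.1, the smallest that 3 lungs against 3 allow. The difference between nanocapsule and PBS lungs was 0.096 without nanocapsule lung 1, and without PBS lung 1 it was 0.14 with an exact permutation p = 0.3. This scale depends on the reference genes, of which 5 were higher and 3 lower by mean in nanocapsule than in PBS lungs. There Ly6g differed by 0.36, more than Cebpe at 0.27, and Trem1 by -0.28. Between nanocapsule and anti-PD1 lungs all 8 were higher, with Ly6g at 0.92 beside Cebpe at 1.01. The share of all genes with the same order of groups on this scale was not computed.

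Cebpd had nearly the same group means on this scale. It stood at -2.52 ± 0.13 in nanocapsule lungs, -2.53 ± 0.15 in anti-PD1 lungs and -2.53 ± 0.12 in PBS lungs (SD, n = 3). Cebpa stood at -4.38 ± 0.29, -3.45 ± 0.06 and -4.28 ± 0.51 on the same scale and in the same order. Spi1 differed by -0.21 and Cebpb by -0.33 between nanocapsule and anti-PD1 lungs, so that both differed less by value than the mature neutrophil genes did.

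**Figure D4:**
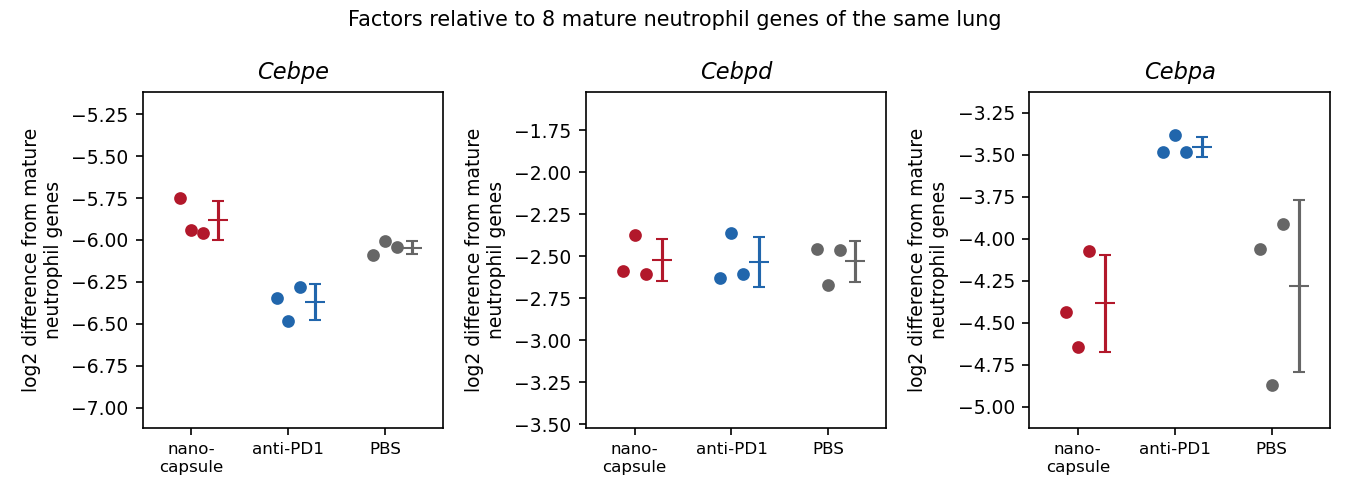
log2(TPM + 1) of Cebpe, Cebpd and Cebpa minus the mean log2(TPM + 1) of 8 mature neutrophil genes in the same lung (points), with group mean and SD; all panels span the same range. Cebpe is lowest in the anti-PD1 lungs, Cebpd is level across groups near -2.5, and Cebpa is highest in the anti-PD1 lungs.

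Genes of neutrophil granules and of mature neutrophils were described as companions, listed by granule class and maturity and not as targets of the factors. Among 5 primary granule genes, 1 was called and higher in nanocapsule than in anti-PD1 lungs, where the list median was 0.96 and that of all tested genes -0.17. The called gene was Elane, the gene of neutrophil elastase, with 11.6, 16.5 and 13.6 TPM in nanocapsule lungs and 5.55, 4.72 and 5.70 TPM in anti-PD1 lungs, which is 1.23 on the log2 scale (SE 0.16, limma adjusted p = 0.0393). Prtn3, the gene of proteinase 3, had a difference of 0.96 (SE 0.16, limma adjusted p = 0.0519). Nanocapsule lungs lay entirely above anti-PD1 lungs for each of the 5 genes, as for 8.73% of all tested genes, and the comparison called 0.106% of those.

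Among 10 secondary and tertiary granule genes, 1 was called and higher, Cd177 (log2 difference 0.85, SE 0.13, limma adjusted p = 0.0448), with a list median of 0.85. Of the 10, 9 had nanocapsule lungs entirely above anti-PD1 lungs, beside the 8.73% of all tested genes that did and the 0.106% that were called. The exception was Chil3, a chitinase-like protein also made by alveolar macrophages, with 655, 595 and 929 TPM in nanocapsule lungs and 1404, 806 and 899 TPM in anti-PD1 lungs. Among the 8 mature neutrophil genes none was called and the list median was 0.45, with Ly6g, the surface marker of mouse neutrophils, at 0.92 (SE 0.14, limma adjusted p = 0.0519) and Retnlg, a resistin-like protein, at 0.86 (SE 0.16, limma adjusted p = 0.0519). In anti-PD1 against PBS lungs the medians of the 3 lists were -0.68, -0.70 and -0.40, and no gene of them was called.

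Genes of upstream signalling, as measured in lung RNA, differed less by value than the granule genes between nanocapsule and anti-PD1 lungs. Of 12 colony-stimulating factors, receptors and signalling genes 9 were tested and none was called, with a list median of 0.12 between nanocapsule and anti-PD1 lungs. Csf3r, the receptor of granulocyte colony-stimulating factor, had a difference of 0.35 (SE 0.15, limma adjusted p = 0.158), and Csf2rb, a shared receptor chain, one of 0.26 (SE 0.13, limma adjusted p = 0.225). Csf3, the gene of granulocyte colony-stimulating factor itself, stayed at or below 0.170 TPM in every lung, Csf2 at or below 0.907 TPM, and Il3 is listed at 0 throughout. In anti-PD1 against PBS lungs the list median was -0.34, beside -0.40 for the mature neutrophil genes. Stat3, a transducer of the Csf3r receptor, differed there by -0.34 (SE 0.12, limma adjusted p = 0.235).

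No other listed factor was called in any of the 3 comparisons. Of 11 partner factors of myeloid progenitors 10 were tested, with a median of -0.23 between nanocapsule and anti-PD1 lungs. Gata2, a factor of progenitors and mast cells, differed by -0.55 (SE 0.16, limma adjusted p = 0.0903) and Erg, a factor of stem cells and endothelium, by -0.64 (SE 0.20, limma adjusted p = 0.0967). The 9 endothelial markers summed to 48.1 to 109 TPM in nanocapsule lungs, 156 to 306 TPM in anti-PD1 lungs and 45.7 to 123 TPM in PBS lungs, and the part of endothelium in the Erg values was not tested. Of 7 monocyte-side factors, Irf8, which favours the monocyte fate, differed by -0.42 (SE 0.16, limma adjusted p = 0.133), and the list median was -0.23.

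The 6 genes of the GFI1 family and its corepressors had a median of -0.26 between nanocapsule and anti-PD1 lungs, with Ehmt2, a histone methyltransferase, at -0.40 (SE 0.15, limma adjusted p = 0.132). The 6 other C/EBP genes and regulators had a median of -0.19, with Trib2, a pseudokinase that promotes the breakdown of C/EBPα, at -0.71 (SE 0.23, limma adjusted p = 0.103). Ddit3, a stress-induced C/EBP protein, had 21.5, 35.6 and 36.7 TPM in nanocapsule lungs, 28.4, 34.8 and 29.2 TPM in anti-PD1 lungs and 59.7, 54.0 and 37.6 TPM in PBS lungs, with limma adjusted p = 0.375 and 0.222 for the nanocapsule and the anti-PD1 lungs against PBS. The 6 proliferation genes had a median of -0.10 between nanocapsule and anti-PD1 lungs, and Mki67, a marker of dividing cells, differed by -0.15 (limma adjusted p = 0.653).

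The same lists were read against PBS, where no listed gene was called. Between nanocapsule and PBS lungs the list medians ran from -0.31 for the other C/EBP genes and regulators to 0.22 for the mature neutrophil genes, with -0.11 over all tested genes. The values with the smallest p there included Camp, the gene of the granule peptide cathelicidin, at 0.46, Prtn3 at 0.42, Csf1, the macrophage growth factor, at -0.44, Klf4, a monocyte-side factor, at -0.34 and Trib2 at -0.84, with limma adjusted p from 0.365 for Trib2 to 0.486 for Klf4. Between anti-PD1 and PBS lungs, Mpo, the gene of myeloperoxidase, differed by -1.03 (limma adjusted p = 0.194), Elane by -1.05 (limma adjusted p = 0.156), and Csf3r by -0.41 (limma adjusted p = 0.235).

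**Figure D5:**
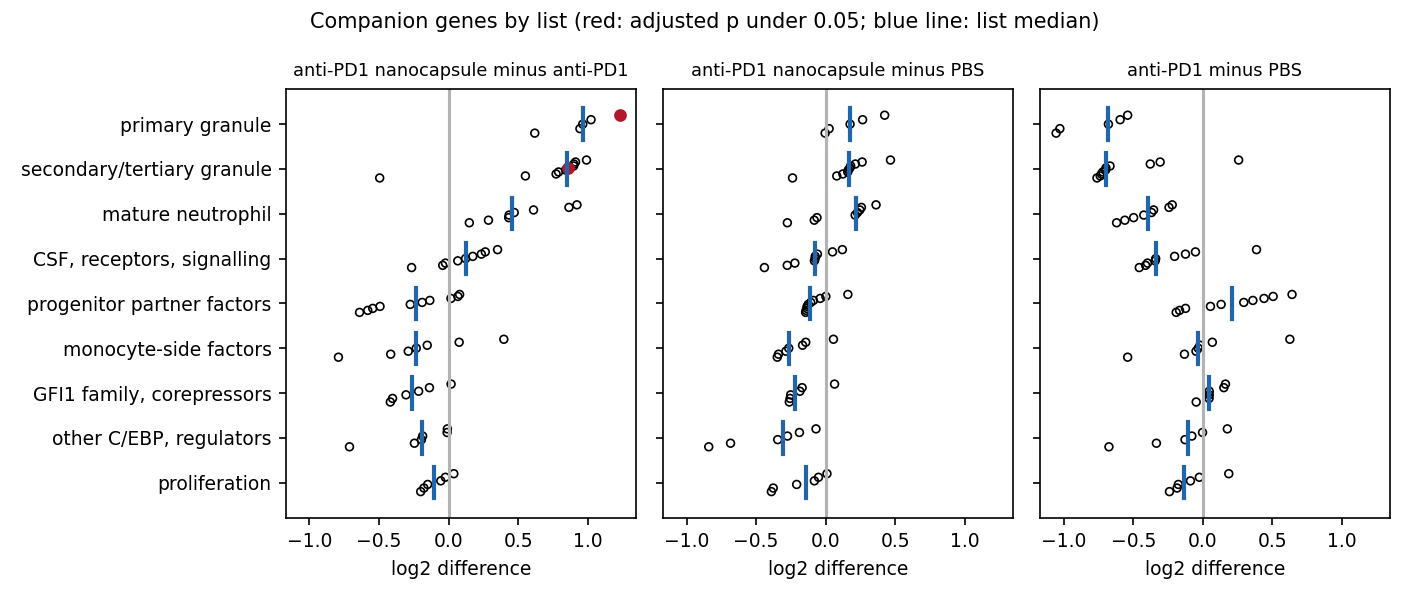
Log2 differences of the tested companion genes by list in the 3 comparisons; each circle is a gene, filled red where the limma adjusted p is under 0.05, and the blue line is the list median. Elane and Cd177 are the called genes, and the 3 neutrophil lists have medians of 0.96, 0.85 and 0.45 in nanocapsule minus anti-PD1 lungs.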

How the data were processed

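PolyA RNA of 9 lungs was sequenced. The deposited gene table gives TPM; salmon appears in its name, while DESeq2 and GRCm38 appear in the submitters' processing notes, without versions or roles. TPM are not counts, so depth is unknown and no count test was used. Genes that reached 1 TPM in 3 or more lungs were fitted on log2(TPM + 1) by limma 3.58.1 (R 4.3.3), with an intensity trend and 1 spread for the 3 groups. P-values were two-sided, adjusted by Benjamini-Hochberg over all tested genes, and called at 0.05. The code of the fit was checked on simulated data with independent noise per gene, which does not measure its error rate in these lungs. Positions and coding sequences came from GENCODE M21, start regions from RefSeq. Likeness took the 4 nearest profiles per factor, and companions were named where called or among the 2 smallest p of a list in a comparison, not all of which are printed. The factors and lists were chosen with earlier results of these data known. Alternatives covered pseudocount, filter, scaling, variance model, samples, a replicate block and left-out lungs. A listed gene and a sequence are not reported here.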

Additional observations from a re-analysis of the deposited data

How the results depend on the processing

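The counts of calls depended on the settings far more than the differences did. For nanocapsule against anti-PD1 lungs, 14 genes were called, against 3 with no filter on low values, 22 with median-of-ratios scaling, 79 after renormalizing without S100a8 and S100a9, 2 with no intensity trend, 476 with only the 2 groups compared, and 0 to 962 with 1 lung left out (962 without PBS lung 2). Without the anti-PD1 and the PBS lung highest in T cell markers, a setting chosen after seeing the data, it was 1. Of the 6 factors 1 was called, against 0 with no filter, 0 with no intensity trend, 0 without those lungs, and 0 to 2 with 1 lung left out (2 without PBS lung 2, where Cebpd had a limma adjusted p = 0.0443). For Cebpe the limma adjusted p was 0.0674 with no filter, 0.0801 with no intensity trend and 0.107 without those lungs, and its difference stayed between 0.88 and 1.20.

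For nanocapsule against PBS lungs, 1 gene was called, against 2 with a pseudocount of 0.1, 0 with no filter, 4 with median-of-ratios scaling, 4 without S100a8 and S100a9, 2 with no intensity trend, 0 without the lungs high in T cell markers and 0 to 4 with 1 lung left out. For anti-PD1 against PBS lungs, 1 was called, against 0 with a pseudocount of 0.1, 2 with 5, 0 with median-of-ratios scaling, 0 without S100a8 and S100a9, 0 with no intensity trend and 0 to 3 with 1 lung left out. No factor was called in either under any of the 18 alternatives. Near-zero differences reversed for nanocapsule against PBS lungs: Cebpa (0.01) ranged from -0.18 to 0.11 and Cebpb (0.04) from -0.010 to 0.11 with 1 lung left out. Cebpa was -0.17 without PBS lung 2. The cause of these shifts was not tested.

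With a replicate block, 1095 genes were called for nanocapsule against anti-PD1 lungs, 5 for nanocapsule against PBS and 1 for anti-PD1 against PBS, and 2 factors (Cebpe and Cebpd, limma adjusted p = 0.0366 for both) in the first. Same-numbered lungs deviated together (correlation over 0.1) in 3 of 9 pairs, and differently numbered lungs in 4 of 18. The correlations ran from -0.18 to 0.28 for same-numbered and from -0.26 to 0.22 for differently numbered lungs. With 3 lungs per group they cannot decide whether lungs were paired, which the labels do not state.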

Other observations

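Genes of developing lymphocytes, chosen after their values were seen, were uneven between lungs of a group. Rag1, a recombinase subunit, had 0.907, 4.72 and 0.911 TPM under nanocapsules, 3.46, 0.932 and 28.3 TPM under free anti-PD1 and 0.338, 0.460 and 8.62 TPM under PBS. Dntt, which adds bases at receptor joints, had 0.767, 12.1 and 1.04 TPM, then 4.49, 1.17 and 46.8 TPM, then 0.536, 0.613 and 14.1 TPM in the nanocapsule, anti-PD1 and PBS groups. Within each group the lung highest in Rag1 was also the lung highest in Gfi1, at 1.93 TPM under nanocapsules, 5.50 TPM under anti-PD1 and 3.25 TPM under PBS. The part of such cells in the Gfi1 values was not tested.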
